A study of Saccharomyces cerevisiae with 14 samples.

Results

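LEU2, URA3 and HIS3 are biosynthetic genes of budding yeast that serve as selectable markers. They are 3 of 6431 nuclear genes that RefSeq names for the reference strain (assembly R64), and were followed here as DNA, by array comparative genomic hybridization (aCGH). Each gene was read through the probes lying in it or reaching at most 60 bases outside it. This gave 16 probes, with 6 in LEU2, 6 in URA3 and 4 in HIS3, of 59133 nuclear probes on the array. A further 55 probes lie in the 2 kb on either side and served for comparison. The genes were selected on their high Cy5 over Cy3 ratios in 12 of 13 TAQed strains, so the ratios below describe that choice and carry no test.

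The 13 TAQed strains are diploid isolates derived from WT14. Numbers 1, 73, 76, 81 and 83 share slide 1 with WT14, and numbers 84, 97, 101, 106 and 107 share slide 2 with 113, 117 and 119. In them the restriction enzyme TaqI had been expressed from a plasmid with a copper-inducible promoter, and heat at 42 °C for 30 min had activated the enzyme, which cuts DNA at a short palindrome. WT14, which the study uses as its control, is a fusion of the MATa haploids YPH499 (of S288C origin) and S799 (of SK1 origin), and both groups share this origin. The labels repeat the TaqI treatment for the WT14 array as well, whereas the study's text treats WT14 as the parent of the TAQed strains. YPH499 carries ura3-52, lys2-801, ade2-101, trp1-Δ63, his3-Δ200 and leu2-Δ1, and S799 carries ura3, lys2, ho::LYS2, leu2Δ, arg4-bgl and cyh2-z. The study's methods thus give a LEU2 deletion in both haploids, whereas its strain list enters an intact LEU2 allele for WT14. Each TAQed strain is 1 clone on 1 array, picked for changed colony or cell form, and WT14 has 1 array, on which WT14 DNA was in both channels. Cells for the arrays were grown in rich medium (YPD), which does not select for any of the 3 genes. The study's methods do not list the markers of the TaqI plasmid, and mention plating of haploids that carried it on medium lacking uracil.

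Leu2 is β-isopropylmalate dehydrogenase of leucine synthesis, Ura3 is orotidine-5′-phosphate decarboxylase of uracil synthesis, and His3 is imidazoleglycerol-phosphate dehydratase of histidine synthesis. A strain that lacks the intact gene needs the corresponding amino acid or base in its medium, and a plasmid copy of the gene restores growth without it. Such copies are therefore widely used in yeast vectors and in strain construction. An array probe reads the total DNA that matches it, so a chromosomal copy and a plasmid copy cannot be told apart by these data.

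In aCGH, the DNA of a strain (Cy5, red) and the DNA of WT14 (Cy3, green) hybridize to the same spots. Values are log2 ratios of Cy5 over Cy3 centred on each array's median, where 0 means the same relative amount as WT14, 1 a doubling and -1 a halving. The median raw Cy5 signal was 157 to 284 on 13 arrays and 25 on the array of strain 81, where 81.0% of probes were well above background in Cy3 against at least 99.9% elsewhere. The noise between adjacent probes was 0.11 to 0.13 on the log2 scale, and 0.19 for strain 81. No spot was saturated.

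All 3 genes were high in the same 12 TAQed strains and near 0 in strain 83 and WT14. URA3, on chromosome V from 116167 to 116970 (sacCer2, as are all coordinates here), had a median ratio over its probes of 3.88 at the lowest, 4.77 at the median and 7.20 at the highest of the 12 strains, against 0.12 in strain 83 and 0.14 in WT14. HIS3, on chromosome XV from 721946 to 722608, lay at 5.33, 6.32 and 9.06 in the same order, against 0.18 in strain 83 and 0.08 in WT14. LEU2, on chromosome III from 91324 to 92418, lay at 6.40, 7.21 and 9.02, against -0.19 in strain 83 and -0.07 in WT14. In linear terms the URA3 signal ratio was 14.8 to 147-fold and the HIS3 ratio 40.2 to 534-fold, so neither gene had a strain between the 12 and strain 83.

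Each of the 16 gene probes was over 1 in exactly these 12 strains. Over the whole array, 23 of 58683 probes with a value on every array, or 0.0392%, exceeded 1 in at least 12 of the 13 TAQed strains, and 19 of these (0.0324%) were under 1 on the WT14 array. Of the 7 that are no members, 4 lie near the left end of chromosome VI or on chromosome XII and were also over 1 on the WT14 array, at 1.36 to 1.65. The other 3 lie together on chromosome VIII between 214525 and 214649, where the 12 strains had 2.20 to 5.91, strain 83 had 0.51 to 0.68 and WT14 had 0.30 to 0.52. The listing itself required at least 12 strains over 1, and at these probes the strain below 1 was strain 83. Some of these probes share the coordinates 214590 to 214649. In the 2 kb window around them, the lowest of the 12 strains lay at -0.71, below strain 83 at 0.47.

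**Figure D1:**
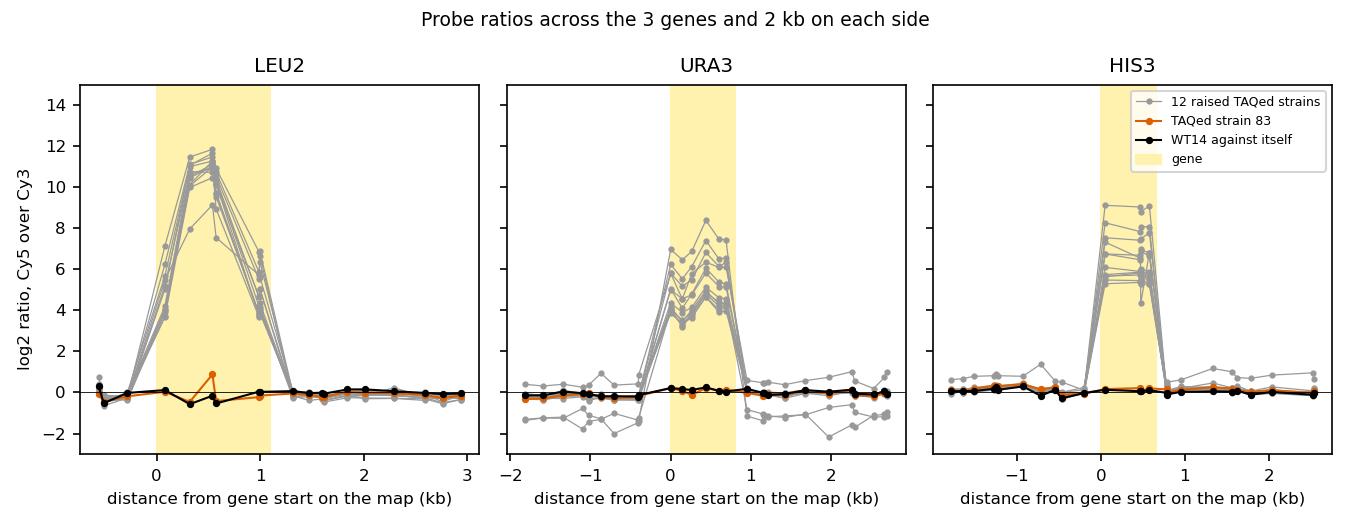
Log2 ratio of Cy5 over Cy3 (vertical axis) of each probe against its distance from the start of LEU2, URA3 and HIS3 in kb (horizontal axis, shaded over the gene), with the 12 raised TAQed strains in grey, TAQed strain 83 in orange and WT14 in black. Every probe in a gene is raised in the 12 strains and no gene-wide rise is seen in strain 83 or WT14. The neighbouring probes lie far below the genes in the 12 strains.

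The raised stretches ended within or close to the genes. At LEU2 the unbroken run of probes with a median over the TAQed strains above 1 reached from 91376 to 92353, inside the gene. The nearest probes outside it, at 91014 to 91071 and at 92610 to 92669, had medians of -0.22 and -0.05 and lay at most at 0.08 in any TAQed strain, against -0.02 and 0.07 in WT14. The last 304 bases before and 256 bases after the run hold no probe, so that the true ends are placed no better than that. RefSeq's table for assembly R64 lists SUP53 and NFS1, a cysteine desulfurase gene, as the neighbours of LEU2 (YCL018W).

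At URA3 the run reached from 116139 to 116887, and its first probe starts 28 bases outside the gene. The probes next to it, at 115738 to 115797 and at 117090 to 117149, had medians of -0.22 and 0.11 over the TAQed strains, against -0.13 and 0.18 in WT14. In single TAQed strains these probes ranged from -1.40 to 0.84 and from -1.15 to 0.59. URA3 (YEL021W) lies between GEA2, which encodes a guanine nucleotide exchange factor, and TIM9, which encodes a mitochondrial import protein. At HIS3 the run reached from 721967 to 722554, between probes at 721715 to 721772 and at 722699 to 722758 whose medians were 0.00080 and 0.14, against -0.03 and -0.02 in WT14. HIS3 (YOR202W) lies between MRM1, an rRNA methyltransferase gene, and DED1, which encodes an RNA helicase. The longest stretch that could be raised without touching an unraised probe was 1538 bases at LEU2, 1292 at URA3 and 926 at HIS3.

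The flanks differed from the median of their chromosome by at most 0.27 on any array, with that gap at HIS3 in strain 81 (0.73, against 0.46 for chromosome XV). In the 2 kb around URA3 the ratio was -1.24 in strain 113 and -1.18 in strain 117, and 0.47 in strain 81, and it lay between -0.17 and -0.04 in the other raised strains, against -0.06 in WT14. Strains 113 and 117 thus carried high URA3 ratios of 7.20 and 4.17 on a background below that of WT14. Around HIS3 the flank was 0.73 in strain 81 and 0.06 to 0.23 in the raised strains other than 81, 113 and 117, against 0.04 in WT14. Around LEU2 it was -0.31 to -0.0047 in the 13 TAQed strains, against -0.02 in WT14. With the flank subtracted, the median over the 13 strains was 7.25 for LEU2, 5.23 for URA3 and 5.80 for HIS3, with SDs of 2.25, 1.85 and 2.08. Normexp background correction, run with an offset of 50 added to every signal in both channels, gave 4.43 for LEU2. In strain 81 it gave a HIS3 ratio of 1.93 in place of 6.67.

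LEU2 was not raised evenly along its length. The 3 outer probes, at 91376 to 91433, 92285 to 92340 and 92294 to 92353, had a median ratio of 3.71 at the lowest, 4.62 at the median and 6.87 at the highest of the 12 strains, against -0.15 in strain 83 and 0.04 in WT14. The 3 inner probes, at 91615 to 91674, 91834 to 91893 and 91871 to 91928, had 7.96, 10.59 and 11.47. The inner and outer probes therefore differ in kind, and the median over all 6 LEU2 probes falls between them. At the inner probes the Cy3 denominator was not measured above background, as the raw signals show.

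At 91615 to 91674 the raw Cy3 signal, the WT14 DNA, was 10.0 to 12 on the arrays of the 11 raised strains other than strain 81, and 10.0 on the WT14 array. The raw Cy5 signal there was 2236 to 4256 in these 11 strains, with a median of 2612, against 10.0 in strain 83 and 11 in WT14. The inner probes were well above background in Cy3 on 0 of 14 arrays, and all 3 were so in Cy5 on 12 arrays, those of the raised strains. The middle of LEU2 thus gave a signal in 12 TAQed strains and none well above background in strain 83 and WT14. The study's strain list enters an intact LEU2 allele for WT14, for which these probes gave no such signal. At the outer probe 91376 to 91433, by contrast, raw Cy5 was 404 in strain 83 and 400 in WT14, and raw Cy3 on these arrays was 254 and 240.5.

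Since the inner probes have only a bound in WT14, their Cy5 was set against the lowest Cy5 level well above background on the WT14 array, after each channel was scaled by its array median. By that measure the inner LEU2 signal was at least 359-fold higher in strain 1, the lowest of the 11 strains, and at least 920-fold higher in strain 113, the highest, with a median of at least 505-fold. Strain 81 gave at least 1669-fold, on a dim array where scaling by a low median enlarges the value. The dyes had 1 orientation on all arrays, and the part of dye bias in these bounds was not tested.

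**Figure D2:**
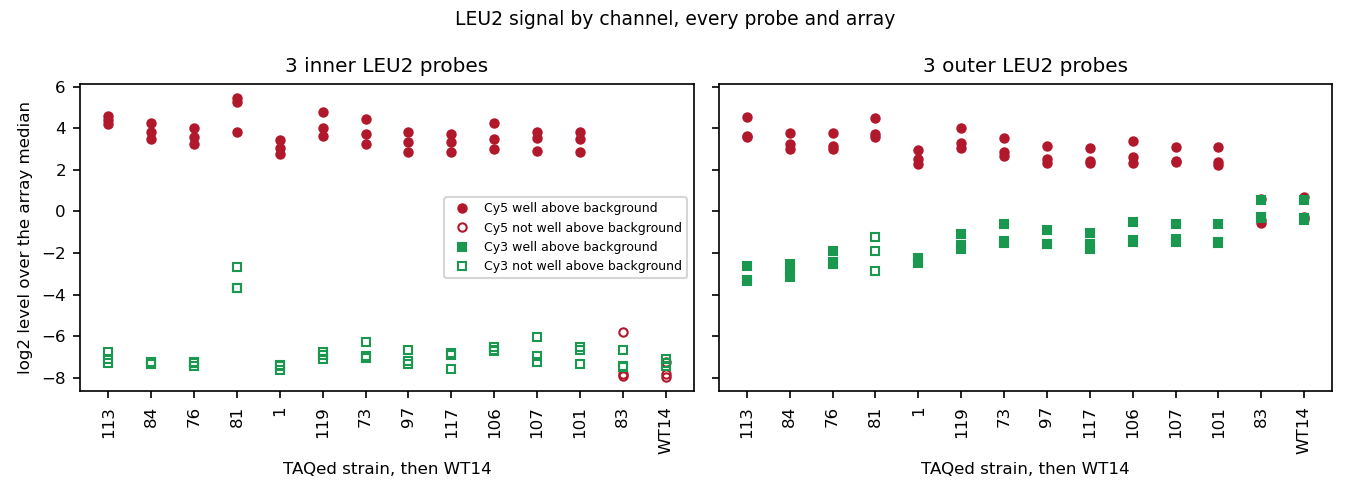
Scaled log2 level (vertical axis, signal over the array median) of the 3 inner and the 3 outer LEU2 probes on every array (horizontal axis, raised TAQed strains from highest to lowest ratio, then strain 83 and WT14), with Cy5 as red circles and Cy3 as green squares, open where not well above background. Inner Cy3 is open on 14 of 14 arrays and inner Cy5 only for strain 83 and WT14. The outer probes are filled in both channels everywhere except Cy3 of strain 81.

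The channels were then read apart, each scaled by its array's median and set against the same probe on the WT14 array. In the 12 raised strains the URA3 Cy5 signal was 2.13 to 3.40 higher on the log2 scale, which is 4.38 to 10.6-fold, against -0.05 in strain 83. HIS3 Cy5 was 3.94 to 5.37 higher, or 15.3 to 41.5-fold, against 0.09 in strain 83. Cy5 at the outer LEU2 probes was 2.61 to 4.01 higher, or 6.10 to 16.1-fold, against -0.13 in strain 83. The rise in the strain's own channel was thus well below the ratio for URA3, HIS3 and the outer LEU2 probes.

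The remainder lay in Cy3, which carried WT14 DNA on every array. In the 12 raised strains the Cy3 signal changed by -3.92 to -1.58 at URA3, by -3.65 to -1.20 at HIS3 and by -2.97 to -1.03 at the outer LEU2 probes, whereas in strain 83 it changed by -0.04, 0.07 and 0.06. The flank medians of Cy3 lay between -0.05 and 0.30 in the 13 TAQed strains. The fall was thus seen in the gene medians of the strains with high Cy5, and not in strain 83 or in the flank medians. At the URA3 probe 116579 to 116634, for example, raw Cy3 was 20.0 to 82.0 with a median of 62.0 on 11 arrays, against 284 for strain 83 and 277 for WT14. Raw Cy5 there was 2242 to 3539 with a median of 2497, against 473 for strain 83 and 508 for WT14.

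Of the sum of both log2 changes, the fall in Cy3 made up 39.3 to 59.2% at URA3, 22.6 to 42.1% at HIS3 and 26.5 to 45.5% at the outer LEU2 probes over the 12 strains. The ratios are thus larger than the Cy5 signals alone, and neither was calibrated as a number of gene copies. The cause of the Cy3 fall was not tested.

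**Figure D3:**
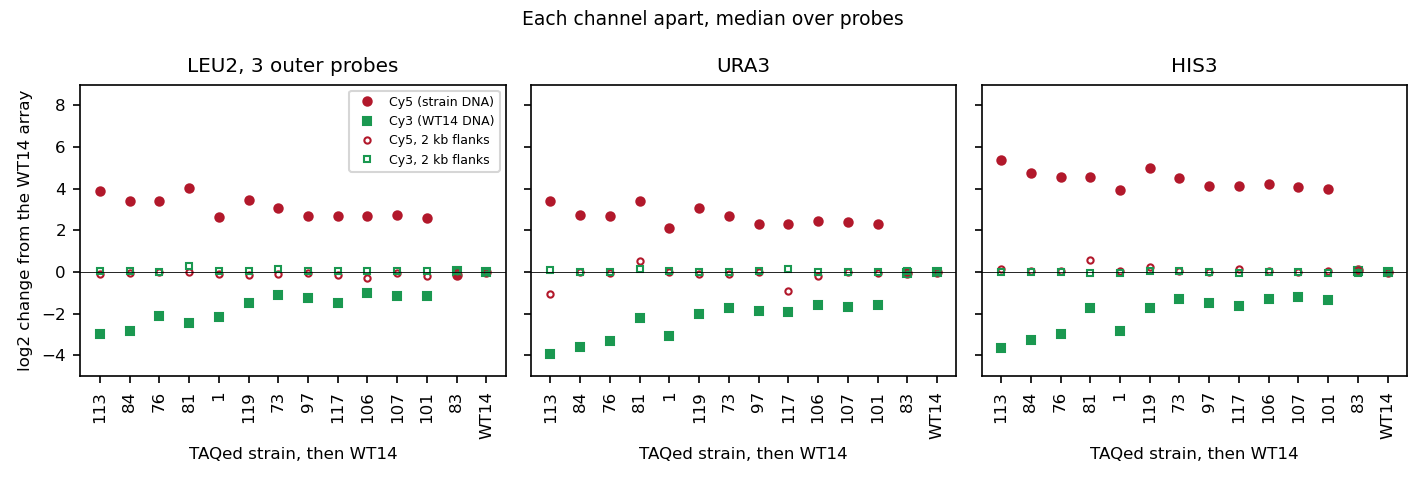
Change in each channel from the WT14 array (vertical axis, log2, median over probes) by array (horizontal axis, raised TAQed strains from highest to lowest ratio, then strain 83 and WT14) for the 3 outer LEU2 probes, URA3 and HIS3, with Cy5 as red circles, Cy3 as green squares and the 2 kb flanks as small open symbols. Cy5 lies above 2 and Cy3 below -1 in the 12 raised strains, and both lie near 0 in strain 83. The open Cy5 symbols depart from 0 most at URA3 in strains 113 and 117 and, for strain 81, at URA3 (0.53) and HIS3 (0.58), where strain 81 also has a Cy3 value of 0.30 at LEU2.

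The size of the Cy3 fall set a few strains apart. At URA3, strains 1, 76, 84 and 113 had Cy3 changes of -3.92 to -3.09, and the 7 raised strains other than these and strain 81 had -2.04 to -1.58. At HIS3 the same 4 strains had -3.65 to -2.86, and the other 7 had -1.71 to -1.20. At the outer LEU2 probes strains 113 and 84 had -2.97 and -2.82, with strains 1 and 76 at -2.17 and -2.11 and the same 7 strains at -1.49 to -1.03. Strains 1 and 76 were on the slide with WT14, and strains 84 and 113 were on the other slide. Strain 1 showed the difference between the measures most plainly, since its URA3 and HIS3 Cy5 changes of 2.13 and 3.94 were the lowest of the 12 strains while its ratios of 5.17 and 6.77 were not.

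At HIS3, the probes with the larger rise in Cy5 had the smaller fall in Cy3. The 4 HIS3 probes had median Cy5 changes of 3.58, 4.87, 4.69 and 3.83 over the 12 strains, in map order, and median Cy3 changes of -2.35, -1.13, -1.21 and -2.07. Their median ratios nevertheless lay close together, at 6.42, 6.18, 5.96 and 6.25. The middle pair of HIS3 probes, at 722388 to 722447 and 722395 to 722447, overlap and share most of their sequence. Among the 6 URA3 probes, the one at 116401 to 116460 had the largest Cy5 change, 3.46, and the smallest Cy3 fall, -0.76, with a ratio of 4.45. The URA3 probe with the highest ratio, 5.48 at 116579 to 116634, had a Cy5 change of 2.58 and the largest Cy3 fall, -2.42. Both changes are measured from the WT14 array, on which the probes with the smaller Cy3 fall were dim. In map order the HIS3 probes had raw Cy5 of 252, 69, 75 and 238 there, and raw Cy3 of 156, 51, 52 and 144. The URA3 probe at 116401 to 116460 had 84 and 53.5, against 355 to 508 and 205 to 304 at the other URA3 probes. The part of this shared baseline in the pattern was not tested. The changes and ratios above are medians over strains of single probes, given as a description.

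**Figure D4:**
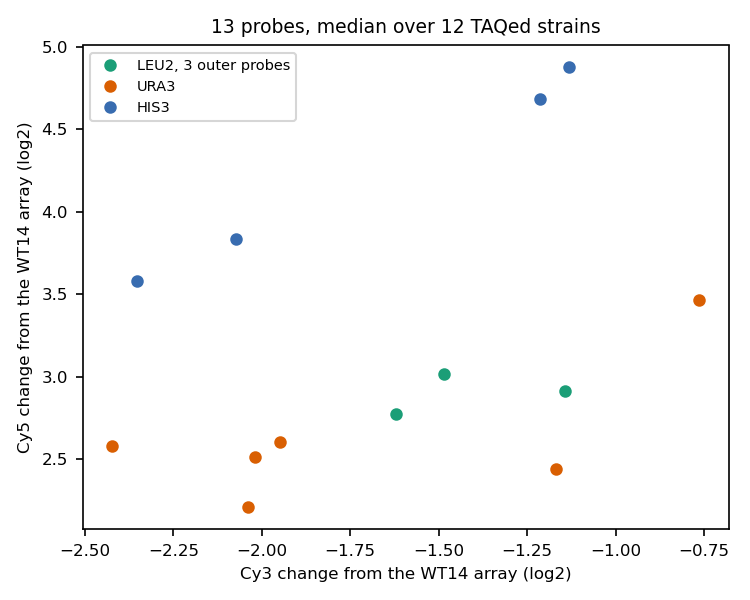
Median Cy5 change (vertical axis, log2) against median Cy3 change (horizontal axis, log2) from the WT14 array over the 12 raised TAQed strains, 1 point for each of 13 probes, with the outer LEU2 probes in green, URA3 in orange and HIS3 in blue. The HIS3 probes lie higher than the others, and the pair with the largest Cy5 change, 4.87 and 4.69, has Cy3 changes of only -1.13 and -1.21. That pair was dim on the WT14 array, with raw Cy3 of 51 and 52.

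Within a strain the genes kept an order. The HIS3 ratio exceeded the URA3 ratio in 12 of 12 raised strains, by 0.73 at the lowest, 1.55 at the median and 1.87 at the highest, against 0.07 in strain 83 and -0.06 in WT14. URA3 exceeded the outer LEU2 probes in 12 of 12 strains by a smaller margin, 0.04 to 0.37, against 0.27 in strain 83 and 0.10 in WT14, and the range in the 12 strains includes both of these values. In Cy5 alone URA3 was lower than outer LEU2 in 12 of 12 strains, by -0.71 to -0.25. With normexp background correction the HIS3 ratio exceeded URA3 in 11 of 12 strains, by a median of 0.36, and was lower by -0.52 in strain 81. Different probes answer differently to the same DNA, so these margins are not copy numbers.

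By ratio, the strains stood in a similar order at each gene. Each strain is 1 clone on 1 array, so the spreads below are between probes of an array and the order is a description with no test. Over the 13 probes of the genes with a Cy3 signal above background on every array but that of strain 81, strain 113 lay 2.28 ± 0.21 above the mean of the 12 strains (SD over 13 probes), strain 84 lay 1.40 ± 0.15 above it and strain 76 lay 0.92 ± 0.17 above it. At the other end, strains 107 and 101 lay at -1.09 ± 0.10 and -1.13 ± 0.14. The array of strain 113 read above that of strain 84, and that of strain 84 above that of strain 76, at 13 of 13 probes. Strain 119 read above strain 73 by 0.67 ± 0.12 and strain 73 above strain 97 by 0.25 ± 0.11, again at 13 of 13 probes, and strain 106 read above strain 107 by 0.19 ± 0.14, at 12 of 13.

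The gap was smaller than the spread over probes for strains 1 and 119 (0.03 ± 0.19), strains 97 and 117 (0.02 ± 0.11), strains 117 and 106 (0.05 ± 0.15), and strains 107 and 101 (0.04 ± 0.13). Strain 81 lay at 0.52 ± 0.88, and this wide spread covers its neighbours in the order, strain 76 at 0.92 and strain 1 at 0.13. Only 2 of the 13 probes were well above background in Cy3 on the array of strain 81. With normexp correction strains 113 and 84 had ranks 1 and 2, strain 119 had rank 3, and strain 81 had rank 12.

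In Cy5 alone the order was another one. Over the same probes strain 113 was again first, at 0.86 ± 0.25 above the mean of the 12 strains. Strain 81, on its dim array, had rank 2 at 0.57 ± 0.71. Unlike by ratio, strain 119 came before strain 84, at 0.44 ± 0.12 against 0.22 ± 0.19, and strain 1 came last, at -0.49 ± 0.18. Strain 119 had Cy5 changes of 3.08 at URA3 and 3.45 at the outer LEU2 probes, and strain 84 had 2.71 and 3.39. Strain 84 thus stood above strain 119 by ratio and below it by Cy5.

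**Figure D5:**
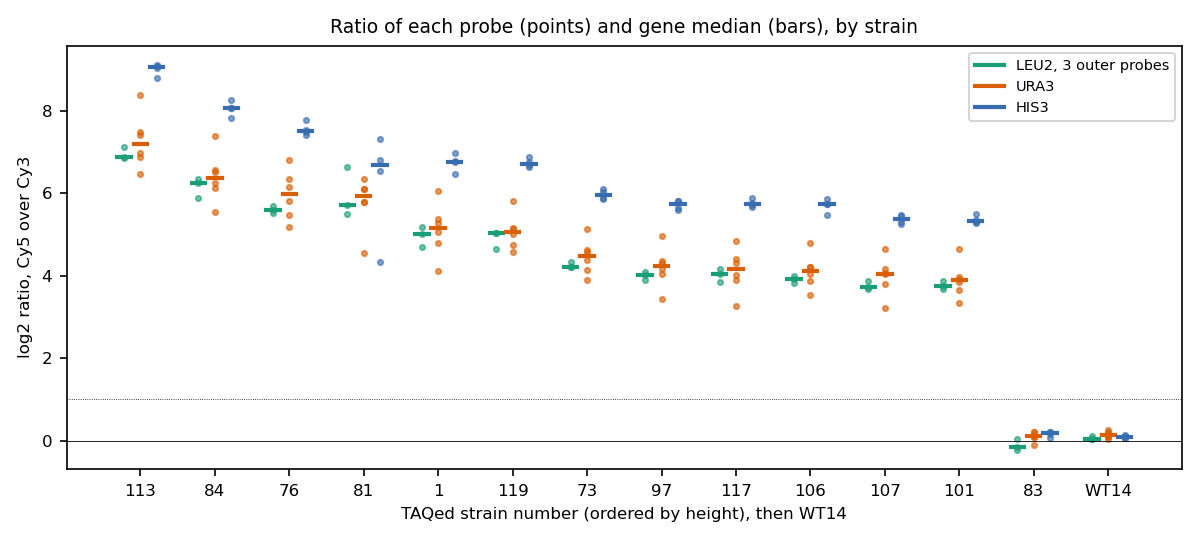
Log2 ratio of Cy5 over Cy3 (vertical axis) of each probe (points) and the median of each gene (bars) for the 3 outer LEU2 probes, URA3 and HIS3, by TAQed strain in order of height and with WT14 last (horizontal axis). The dotted line marks 1. The strains are ordered by these ratios, HIS3 lies above the others, and strain 83 and WT14 lie near 0.

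The genes were chosen for high ratios in the 12 raised strains, and whether the heights vary together among these was not part of that choice. It was tested over the 12 strains, since strain 83 stands apart. The values of the 3 genes in a strain share an array and a Cy3 sample. A small p-value here therefore cannot tell joint variation of the DNA from variation between arrays. LEU2 was taken over all 6 of its probes, inner ones included, here and in the slide comparison below. With the flank subtracted, URA3 and HIS3 had a Pearson r of 0.94 (permutation p = 1e-05, the smallest these permutations can give, adjusted p = 1.5e-05, n = 12) and a Spearman rho of 0.90 (permutation p = 0.00012, adjusted p = 0.00018). LEU2 and HIS3 had r = 0.96 (permutation p = 1e-05, adjusted p = 1.5e-05) and rho = 0.93 (permutation p = 4e-05, adjusted p = 0.00012). LEU2 and URA3 had r = 0.90 (permutation p = 8e-05, adjusted p = 8e-05) and rho = 0.85 (permutation p = 0.00068, adjusted p = 0.00068). All tests were two-sided and 3 pairs were compared.

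Without the 2 strains farthest from the median on the first gene, r was 0.88 for URA3 and HIS3 (without strains 101 and 113; 0.42 with normexp, without strains 81 and 113), 0.88 for LEU2 and HIS3 and 0.74 for LEU2 and URA3 (both without strains 84 and 113). Within the 8 strains of slide 2 r was 0.95, 0.96 and 0.92 in the same order, and slide 1 held only 4 raised strains. With the outer LEU2 probes only, added after seeing the data, the ratio of LEU2 had r = 0.92 with URA3 and 0.92 with HIS3. The ratios contain the fall in Cy3, so the Cy5 changes were also correlated alone, an alternative chosen after seeing the data. The Cy5 change of the flank was subtracted, and LEU2 again included the inner probes, whose WT14 level is at background. These gave a lower r of 0.78 for URA3 and HIS3 (permutation p = 0.0055, adjusted p = 0.0165, rho = 0.59), 0.58 for LEU2 and HIS3 (permutation p = 0.0484, adjusted p = 0.0484, rho = 0.59) and 0.65 for LEU2 and URA3 (permutation p = 0.0206, adjusted p = 0.0309, rho = 0.73), with n = 12. Without strains 1 and 113 the Cy5 r of URA3 and HIS3 was 0.38, so that relation rests on these strains, whereas without strains 81 and 113 it was 0.95 for LEU2 and HIS3 and 0.64 for LEU2 and URA3. Values of a strain share its array, its DNA preparation and the Cy3 sample, and their part in the correlation was not tested.

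No difference in height between the slides was detected. The mean flank-subtracted ratio of the 8 TAQed strains on slide 2 exceeded that of the 5 on slide 1 by 1.46 for LEU2, 0.94 for URA3 and 1.17 for HIS3 (exact permutation p = 0.44, 0.45 and 0.44, two-sided, adjusted p = 0.45 for each). Strain 83, the unraised strain, was on slide 1. The SDs on that slide were 3.47, 2.35 and 2.93 with it, and 0.39, 0.60 and 0.74 without it. This first test therefore cannot separate a slide effect from the place of strain 83. Without strain 83 the differences were -0.087, -0.084 and -0.11 (exact permutation p = 0.85, 0.83 and 0.85).

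The whole genome was also read in 2 kb windows. Of 5856 windows with at least 3 probes, 3 (0.0512%) had a mean ratio over 1 in at least 12 TAQed strains, and these were a window of LEU2 (chromosome III, 90001 to 92000), one of URA3 (chromosome V, 116001 to 118000) and one of HIS3 (chromosome XV, 722001 to 724000). The choice of genes used this contrast, so the count is no test. The limma fit given next had only 1 WT14 array, and strain 83 widened the spread at the windows of the 3 genes. It did not call even these windows, so its count is not informative about them. A limma fit of the 13 TAQed arrays against the WT14 array called 0 windows at an adjusted p of 0.05 (0% of those tested), with 71 at an unadjusted p under 0.05. Without strain 83 it called 1, the LEU2 window on chromosome III, but strain 83 is the strain that lacks the rise, so leaving it out selects on the outcome and this call is no test.

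The windows whose pattern was most like the mean of the 3 genes over the 14 arrays, among 1794 windows with a range of at least 1, are given next. The first, on chromosome VIII from 214001 to 216000, had r = 0.58 and was over 1 in 11 TAQed strains. Its median over all TAQed strains was 1.36, against 0.32 in WT14. The lowest value was -0.71, in a strain raised at the 3 genes, and strain 83 had 0.47. The other 4, on chromosome II from 802001 to 804000 and on chromosome XII from 1062001 to 1064000, 656001 to 658000 and 954001 to 956000, had r from 0.56 to 0.44. None of these 4 windows exceeded 1 in any TAQed strain, and in each of them strain 83 was the lowest. The r values share 14 arrays and are a description.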

How the data were processed

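The authors hybridized DNA of 13 TAQed strains and of WT14 (Cy5) against WT14 (Cy3) on a custom Agilent array, and deposited spot tables of Agilent Feature Extraction 11.0.1.1. The deposited processed intensity has background subtracted and a linear dye normalization applied within each array. The authors also deposited a matrix of log10 ratios for 47691 spots, which was used as an alternative; 13 of the 16 gene probes are in it.

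Log2 ratios were computed from the processed intensity, without loess, since copy number can truly shift. Control spots (997) and spots with outlier flags (64 to 135 per array) were left out, spots of a probe were averaged, and each array was centred on its median. Channels were scaled by their array medians. Windows were tested with limma 3.58.1 (Benjamini-Hochberg adjustment) in R 4.3.3, tested first on simulated data, and correlations with 100000 permutations. Groups came from the labels. P-values measure the spread between single clones on single arrays. Probes were named by the coordinates of the rule, windows by likeness of pattern (the 5 highest correlations). Other leucine, uracil and histidine genes were not analysed here, since no annotation of sacCer2 was used. No probe sequence was used. The members and lists were chosen with earlier results of these data known.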

Additional observations from a re-analysis of the deposited data

How the results depend on the processing

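The flank-subtracted medians of URA3 and HIS3 over the 13 TAQed strains moved by less than their SD under every alternative run (normexp, loess, the matrix, gene bounds, flank width, mean over probes, outlier spots, WT14 subtraction, strain 81 left out, and a Cy3 minimum added after seeing the data). LEU2 did so too except with normexp on the median signals (4.43), with the matrix (4.43), which lacks an inner probe, and with the outer probes alone (4.32, added after seeing the data), against 7.25. The SDs over 13 strains include the unraised strain 83. Over the 12 raised strains normexp lowered the HIS3 median from 5.87 to 4.24, by more than its SD of 1.175 there. The URA3 median went from 5.26 to 4.22, by less than its SD of 1.255. The count of 12 strains per gene was unchanged at thresholds of 0.5 and 2, with normexp and with the flank subtracted. The slide difference turned to -0.087, -0.084 and -0.11 for LEU2, URA3 and HIS3 without strain 83, also added then, and was positive under the other alternatives. The correlations kept their direction and side of the threshold, but with normexp r of URA3 and HIS3 was 0.42 without strains 81 and 113, and with the Cy5 change alone (added after seeing the data) it was 0.38 without strains 1 and 113. The count of windows was 1 without strain 83 and 0 under the other alternatives. No paired analysis was possible because WT14 has 1 array and strain numbers pair no samples. Signal over background limits Cy3 at the inner LEU2 probes on every array and at most gene probes of strain 81.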
